A study of Bos grunniens and Bos grunniens x Bos taurus with 6 samples.

Results

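Spermatogonia of the prepubertal yak testis at 6 months were taken as 120 cells out of 14000 that passed the quality filter in the 2 libraries of that age. The choice used measured transcripts: a cell had to hold at least 2 of UCHL1, DMRT1, ZBTB16, TKTL1, NANOS3, FGFR3, RET and PIWIL4, with at least 3 unique molecular identifiers (UMIs, counted RNA molecules) over them. It could hold at most 1 UMI over DCN, COL1A2, PECAM1, CDH5 and CD3D, which mark stroma, endothelium and T cells. The quality filter asked for 300 or more genes and for mitochondrial UMIs of no more than 20%. These 120 are called germ-gated cells here, with 77 in replicate 1 and 43 in replicate 2.

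The study profiled testis of Bos grunniens with 10x Genomics libraries. The groups used here were prepubertal yak of 6 months (replicates 1 and 2) and yak of 18 months (replicates 3 and 4), with single libraries of a yak of 4 years (replicate 5) and of a cattle-yak, the cross of cattle and yak, beside them. All tissue had been frozen, thawed, digested with collagenase, hyaluronidase and trypsin, and the cells kept in medium before loading. Nothing in the labels tells whether both libraries of an age are from different animals. The p-values therefore rest on the spread between libraries, which may be technical.

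Before puberty, spermatogonia are the germ cells of the seminiferous cords, where they lie among Sertoli cells, the somatic cells that nourish them. The stem cell fraction renews itself, and differentiating spermatogonia later divide and enter meiosis. Germ cells also hold a piRNA pathway, in which PIWI proteins and their partners use small RNAs to silence transposons.

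The 6-month libraries held 19254307 and 15565708 UMIs, the 18-month libraries 24762829 and 17482769. Germ-gated cells were 0.964% of kept cells in replicate 1 (95% exact interval 0.761 to 1.20) and 0.715% in replicate 2 (0.518 to 0.962) at 6 months, against 10.4% and 11.6% at 18 months. With 2 libraries against 2, the smallest two-sided exact permutation p is 0.33, so these shares could not pass a test at 0.05. The single libraries held 6.48% at 4 years and 1.55% in the cattle-yak. Median depth of the 6-month germ-gated cells was 5324 and 3864 UMIs, with 1597 and 1347 genes. Between 5 and 16 barcodes were shared by pairs of libraries, and 0 of them was a 6-month germ-gated cell. Intervals throughout cover counting error only.

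The label of spermatogonia held for most of these cells and not for all. Sertoli genes were checked through INHA (inhibin alpha), FSHR (the receptor of follicle-stimulating hormone), SOX9, INHBB and CITED1. At 6 months, 26 of 77 germ-gated cells in replicate 1 (33.8%) and 13 of 43 in replicate 2 (30.2%) carried more than 5 UMIs of them, against 18 of 442 and 103 of 488 at 18 months. These Sertoli-rich cells had a median of 13535 and 5334 UMIs and held 74.8% and 50.8% of all UMIs of the 6-month germ-gated cells. A single cell supplied 9.65% of the UMIs in replicate 1 and 19.0% in replicate 2. INHA stood at 4745 and 5447 CPM (UMIs of a gene per 1000000 UMIs of the summed cells) over all 6-month germ-gated cells, against 235 and 1487 CPM at 18 months. It stood at 6521 and 12249 CPM in 6-month cells gated as Sertoli by at least 2 of these genes and 3 UMIs.

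The remaining 51 and 30 cells, 81 in all, are called Sertoli-poor germ-gated cells; the limit of 5 UMIs was chosen after the values were seen, and results are given with and without the Sertoli-rich cells. Their INHA was 135 and 310 CPM, below the 452 and 538 CPM of stromal cells, which were gated by at least 3 UMIs of DCN and COL1A2 with 0 gate-gene UMIs and at most 1 Sertoli gate gene. FSHR and INHBB were at 0 UMIs in both replicates. SOX9 and CITED1 had UMIs at 6 months, and the 5 Sertoli genes summed to 165 and 372 CPM. WT1, another gene listed among Sertoli markers, was higher in Sertoli-poor than in Sertoli-gated cells, as given under Other observations.

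Germ genes that took no part in the gate were found in more of the Sertoli-poor than of the Sertoli-rich cells, but the 2 kinds of cell overlapped. Over 39 such genes, drawn from lists of germ cell, piRNA and meiotic genes, at least 3 UMIs were found in 84.3% and 86.7% of Sertoli-poor cells and in 50.0% and 38.5% of Sertoli-rich cells. The share was 1.48% and 1.67% in Sertoli-gated cells and 0.270% and 0.506% in stromal cells. Median depths were 3239 and 3032 UMIs in Sertoli-poor cells, 3112 and 2940 in Sertoli-gated cells and 1686 and 2082 in stromal cells. All 51 and 30 Sertoli-poor cells had at least 1 such UMI. A doublet score marked 3 and 2 of the Sertoli-rich cells and 3 and 1 of the Sertoli-poor cells. DMRT1 of the gate is also a Sertoli gene. UCHL1 with DMRT1 alone met the gate in 12 of 26 and 5 of 13 Sertoli-rich cells. In Sertoli-poor cells this pair alone did so in 1 of 51 and 3 of 30. Whether Sertoli-rich cells are Sertoli cells that met the gate was not tested. Nor was it tested whether Sertoli transcripts reached germ cells as free RNA, as attached cells or in another way.

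**Figure D1:**
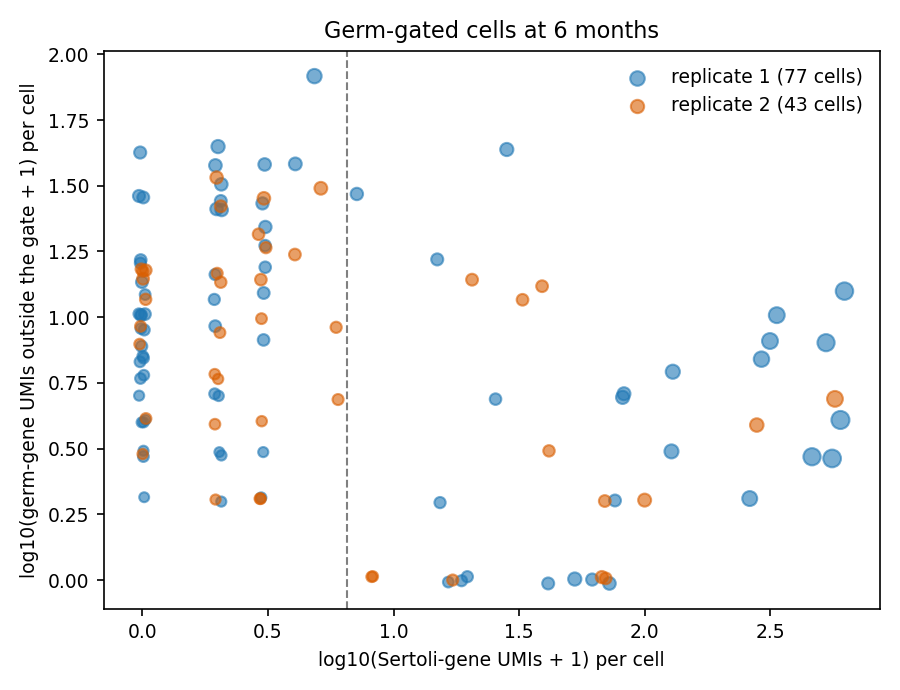
Each point is 1 of the 120 germ-gated cells at 6 months, with point size growing with its UMIs and a small seeded jitter; the x axis is log10(UMIs + 1) of 5 Sertoli genes and the y axis log10(UMIs + 1) of 39 germ genes outside the gate. The 81 cells left of the dashed line (at most 5 Sertoli UMIs) all hold germ UMIs, while the cells right of it spread down to 0.

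At the edge of the gate the Sertoli-rich cells were the majority. Of the germ-gated cells with exactly 3 gate UMIs, 7 of 10 and 6 of 7 carried more than 5 Sertoli UMIs. Just outside, among cells with 2 gate genes and 2 UMIs, 17 of 21 and 14 of 21 did.

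The gate genes chose the cells, so their levels are given as a description. In Sertoli-poor cells UCHL1, a deubiquitinase abundant in spermatogonia and neurons, led with 2313 and 2693 CPM at 6 months, against 1743 and 4047 CPM at 18 months. The 6-month values lie inside the range of the 18-month libraries. TKTL1, a transketolase-like protein, had 722 and 585 CPM at 6 months, against 982 and 1100 CPM at 18 months, so the ages did not overlap. DMRT1, a transcription factor that keeps spermatogonia out of meiosis in mice, had 76.0 and 151 CPM, against 252 and 381 CPM, and again did not overlap. Among genes tested between the ages, levels without overlap were higher at 6 months for 18.6% and lower for 36.7% in Sertoli-poor cells, and for 8.83% and 52.1% over all germ-gated cells. ZBTB16, known as PLZF and needed for stem cell renewal in mice, rested on 4 and 1 UMIs at 6 months, which is 16.9 and 8.86 CPM, against 106 and 48.7 CPM at 18 months.

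PIWIL4, the nuclear PIWI protein, had 114 and 79.7 CPM at 6 months, inside the 18-month values of 141 and 39.0 CPM. NANOS3, an RNA-binding protein of early germ cells, had 50.6 and 62.0 CPM, against 82.5 and 110 CPM. RET, the signalling receptor for GDNF, rested on 7 and 2 UMIs and FGFR3, a fibroblast growth factor receptor, on 5 and 1. UCHL1 was thus found in all 51 and 30 Sertoli-poor cells, TKTL1 in 46 and 25, DMRT1 in 15 and 12, and ZBTB16 in 2 and 1. The commonest pair of gate genes in replicate 1 was UCHL1 with TKTL1 alone, in 18 of 51 cells. UCHL1 was not exclusive to the germ line, with UMIs in 31.0% and 23.8% of Sertoli-gated cells, whereas TKTL1 had UMIs in 0.317% and 0.167% of them.

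**Figure D2:**
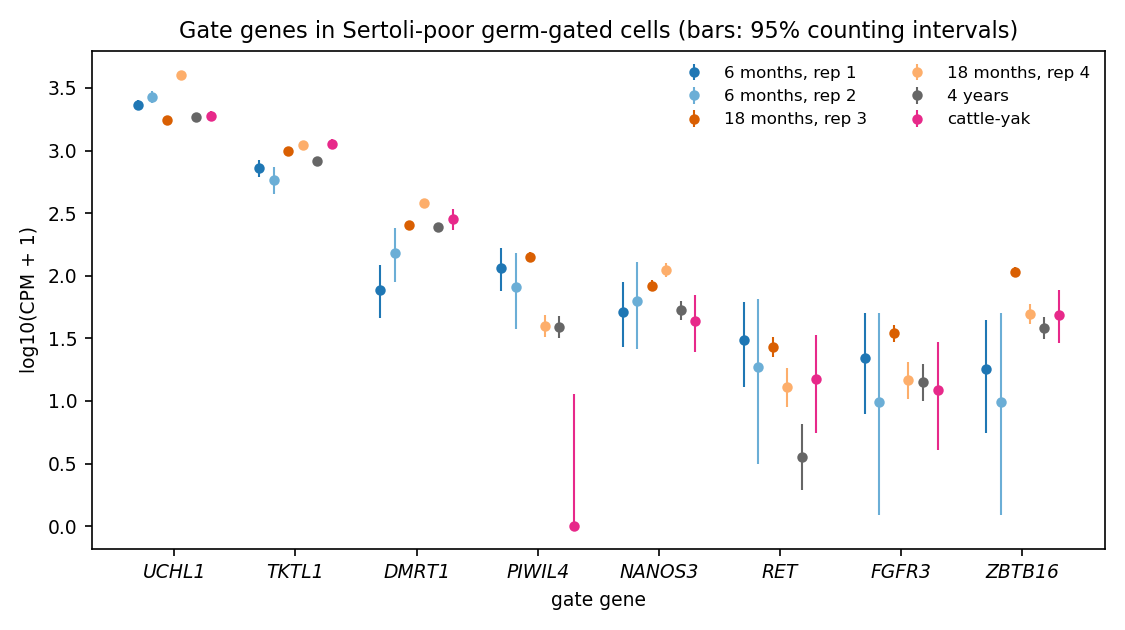
The y axis is log10(CPM + 1) of each gate gene in Sertoli-poor germ-gated cells of the 6 libraries, with 95% counting intervals. UCHL1 and TKTL1 stand highest, and at 6 months RET, FGFR3 and ZBTB16 rest on 9, 6 and 5 UMIs over both libraries.

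The genes that set Sertoli-poor cells apart from all other kept 6-month cells were ranked by the smaller of the ratios in the 2 libraries, with 10 CPM added to each level. Because the cells were chosen by their transcripts, this is a description. C1orf146, a meiotic recombination factor known as SPO16 in mice, led with 785 and 629 CPM, against 2.11 and 3.82 CPM in the other cells. TOMM34, a cochaperone linked to mitochondrial import, had 1570 and 966 CPM, against 14.5 and 17.7 CPM. Several leading genes act in silencing transposons: MAEL had 317 and 301 CPM, ASZ1 257 and 275 CPM, and MORC1 224 and 186 CPM, each under 3 CPM in the other cells.

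A further set belongs to meiosis in other species. REC114, which helps form meiotic DNA breaks in mice, had 295 and 452 CPM. SMC1B, a cohesin subunit of meiotic chromosomes, had 232 and 354 CPM, and TEX12, a part of the synaptonemal complex, 540 and 469 CPM. Other leaders were DLK1, a membrane protein related to Notch ligands, with 907 and 992 CPM, FKBP4, a cochaperone of HSP90, with 1861 and 1205 CPM, and DSTN, an actin-depolymerising factor, with 1963 and 2454 CPM.

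MAEL was found in 54.9% and 56.7% of Sertoli-poor cells and in 0.108% and 0.0843% of stromal cells, and SMC1B in 45.1% and 50.0%, against 0.108% and 0%. In stromal cells of replicate 2 the 0 of 1186 cells for SMC1B has an exact upper bound of 0.311%, which limits the share of cells with a UMI and not that of cells expressing the gene. Over all germ-gated cells thinned to 1000 UMIs, MAEL was found in 21.7% of 69 and 23.3% of 43 cells at 6 months, against 29.1% of 357 and 24.9% of 422 cells at 18 months. Unthinned, these cells had MAEL in 39.0% of 77 in replicate 1.

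**Figure D3:**
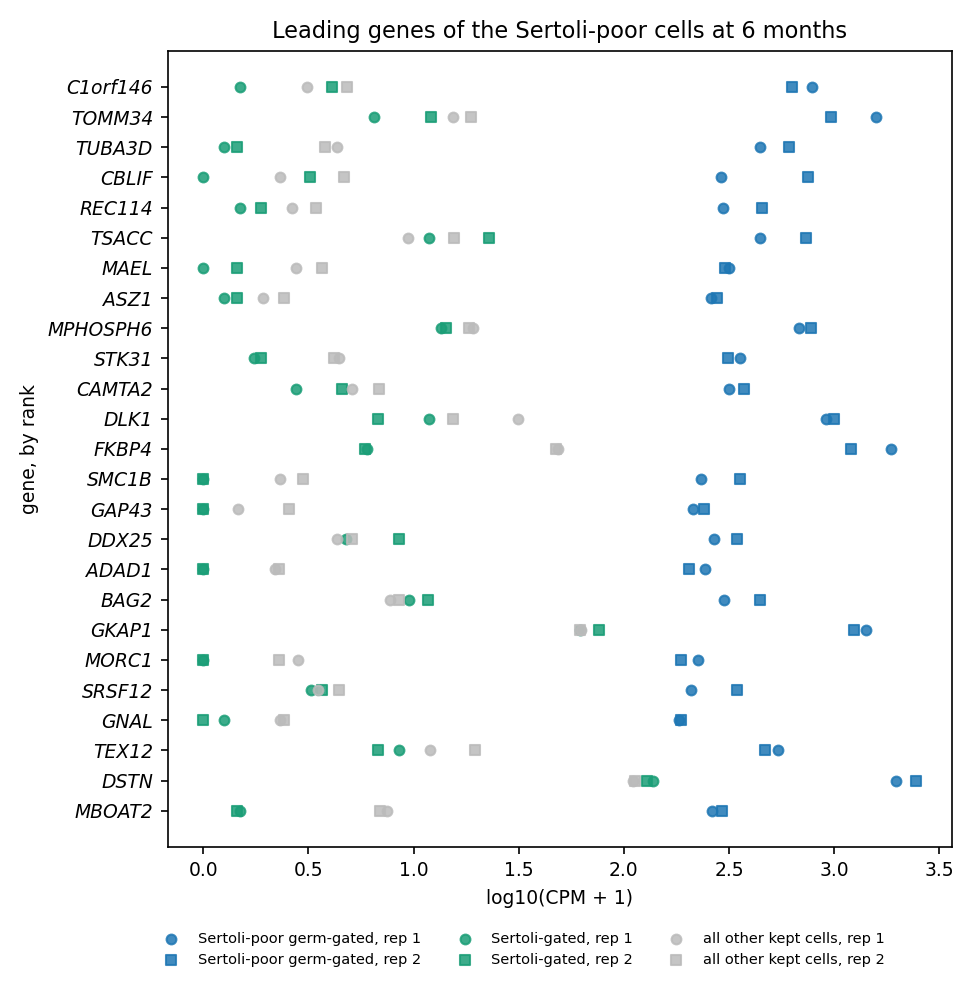
The x axis is log10(CPM + 1) and each row is 1 of the 25 leading genes at 6 months, in Sertoli-poor germ-gated cells (blue), Sertoli-gated cells (green) and all other kept cells (grey), with circles for replicate 1 and squares for replicate 2. The blue points lie right of all others in every row, as the ranking requires.

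Age was compared by summing UMIs per library and testing with edgeR's quasi-likelihood test, adjusted over all genes by the Benjamini-Hochberg method at 0.05. The gate genes were left out. Among all germ-gated cells, 318 of 8860 genes (3.59%) were called, of which 218 (2.46%) were higher at 6 than at 18 months and 100 (1.13%) lower. Of the 218 higher genes, 188 (86.2%) had a higher level in Sertoli-gated than in Sertoli-poor cells in both 6-month libraries, a property of 17.3% of all genes tested. In Sertoli-poor cells 259 of 8332 genes (3.11%) were called, 92 (1.1%) higher and 167 (2%) lower. The lower genes include 7 and 14 of the mitochondrial genome. Just 15 higher genes were shared by the comparisons, which is 6.88% and 16.3% of the 2 sets, and 60 lower genes, 60.0% and 35.9%.

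These counts depended on single libraries. With all germ-gated cells they came to 58, 153 and 1008 when replicates 1, 3 and 4 were left out in turn. In Sertoli-poor cells they came to 32, 25, 166 and 643 when replicates 1 to 4 were left out in turn. Against the main scaling, library totals shifted the 6-month relative to the 18-month libraries by a mean of -0.67 on the log2 scale over all germ-gated cells. In Sertoli-poor cells the shift was -0.17. Scaling by totals gave 139 higher and 1058 lower genes over all germ-gated cells, and 37 higher and 161 lower in Sertoli-poor cells. Of the 46 Sertoli-poor genes given below with a call, 29 kept it with library totals, 22 with no filter on low counts and 18 of the 21 with an adjusted p in DESeq2.

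The 12 genes with the largest rise over all germ-gated cells had 713 UMIs at 6 months, of which 10 came from Sertoli-poor cells, and 6 of the genes had 0 UMIs there. ERP27, a protein of the endoplasmic reticulum, had 70.2 and 34.8 CPM at 6 months, against 1.40 and 0.942 CPM at 18 months (log2 fold change 6.27, edgeR adjusted p = 2.49e-06). The others were TTC36, DPEP1, APOD, SOD3, NAAA, CYP11A1, ATP4B, STRA6, SLC13A3, WNT6 and AIF1L, with log2 fold changes from 4.02 to 5.51. CYP11A1, the first enzyme of steroid synthesis, had 35.1 and 30.5 CPM, against 4.00 and 0.628 CPM. Also higher were 3 Sertoli markers: INHA by 3.10, FSHR by 2.60 and SOX9 by 2.27 on the log2 scale (edgeR adjusted p 0.0297, 0.0336 and 0.0226). Of the 12 immediate-early and heat-shock genes that respond to tissue dissociation, 5 were higher, beside 2.46% of all genes. Among them was ATF3, by 2.36 on the log2 scale. FOSB, also called, had 313 and 192 CPM at 6 months, against 79.1 and 114 CPM at 18 months, but its log2 fold change was -0.45 (edgeR adjusted p = 0.757) once the Sertoli-rich cells were left out. In Sertoli-poor cells 0 of these genes was higher and 2 of 10 were lower, JUN and DUSP1, beside 1.1% and 2% of all genes. JUN had 59.1 and 79.7 CPM at 6 months, against 343 and 299 CPM. DUSP1, which was higher by 1.76 over all germ-gated cells (edgeR adjusted p = 0.0478), rested on 1 UMI in Sertoli-poor cells. Its CPM ratio there was 0.0466, with a counting interval of 0.00118 to 0.261. The adjusted p of JUN was 0.261 when replicate 1 was left out and 0.275 when replicate 2 was. For DUSP1 it was 0.109, 0.192 and 0.184 when replicates 1, 2 and 3 were left out in turn. Of the 12 largest rises, ERP27, APOD, NAAA, CYP11A1, ATP4B and WNT6 kept their call without each replicate in turn. DPEP1, STRA6 and AIF1L lost it when replicate 1 was left out (adjusted p 0.198, 0.228 and 0.065), and SLC13A3 lost it when replicate 2 was (0.0662). INHA had an adjusted p of 0.227, 0.140 and 0.138 without replicates 1, 2 and 3, while for FSHR, SOX9, ATF3 and FOSB it was 0.103 to 0.459 without replicate 1 and 0.118 to 0.241 without replicate 3.

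In Sertoli-poor cells 3 of 9 tested genes named for neurons were higher at 6 months, beside 1.1% of all genes, and 0 lower. The list was chosen with earlier results of these data known, and GAP43 is also 1 of the 25 leading genes. The count is therefore a description. The median of the 9 was -0.57 on the log2 scale, beside -0.18 over all genes. With all germ-gated cells 2 of 8 were higher, beside 2.46% of all genes. They were NPY and CHGA, a protein of secretory granules, and the adjusted p was 0.0701 for STMN2 and 0.113 for GAP43. STMN2, a microtubule-destabilising protein, had 321 and 319 CPM at 6 months, against 56.2 and 88.6 CPM at 18 months (log2 fold change 2.28 ± 0.50 SE, edgeR adjusted p = 0.00169). GAP43, a growth-cone protein, had 211 and 239 CPM, against 76.2 and 50.5 CPM (1.99 ± 0.51, edgeR adjusted p = 0.0133). NPY, neuropeptide Y, had 63.3 and 79.7 CPM, against 11.4 and 11.1 CPM (2.80 ± 0.63, edgeR adjusted p = 0.00219). The ages did not overlap in any of these, as in 18.6% of genes tested on the higher side.

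STMN2 was not particular to germ cells, since stromal cells had 535 and 552 CPM of it at 6 months, against 1030 and 911 CPM at 18 months. The stromal level was therefore lower at 6 months, the opposite order from the germ-gated cells. GAP43 had 0 and 1 UMIs in 6-month stromal cells and 0 in Sertoli-gated cells, and was found in 27 of 51 and 15 of 30 Sertoli-poor cells. Without replicate 1 the adjusted p became 0.102 for STMN2, 0.142 for GAP43 and 0.0514 for NPY, and without replicate 2 it became 0.0944 for STMN2 and 0.204 for GAP43. Without replicate 3 it was 0.0828 for NPY.

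Of the 25 leading genes, 5 were higher at 6 months in Sertoli-poor cells and 0 lower, with a median log2 fold change of 0.85, beside -0.18 over all genes tested. The ranking used the same 6-month levels, so the count is a description. DSTN had 1963 and 2454 CPM at 6 months, against 793 and 634 CPM (log2 fold change 1.78, edgeR adjusted p = 0.0132). MPHOSPH6, a nuclear phosphoprotein, had 675 and 771 CPM, against 146 and 249 CPM (1.99, edgeR adjusted p = 0.0052). CBLIF, the gastric intrinsic factor that binds vitamin B12, had 287 and 753 CPM, against 168 and 102 CPM (2.07, edgeR adjusted p = 0.00394). CAMTA2, a transcription activator, had 317 and 372 CPM, against 131 and 109 CPM (1.67, edgeR adjusted p = 0.0299).

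All 4 kept their call without replicate 3 or 4 and lost it without replicate 1 (adjusted p 0.0656 to 0.237) and without replicate 2 (0.26 to 0.479). Among all germ-gated cells, whose UMIs come mostly from Sertoli-rich cells at 6 months, 0 of the 25 was called.

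**Figure D4:**
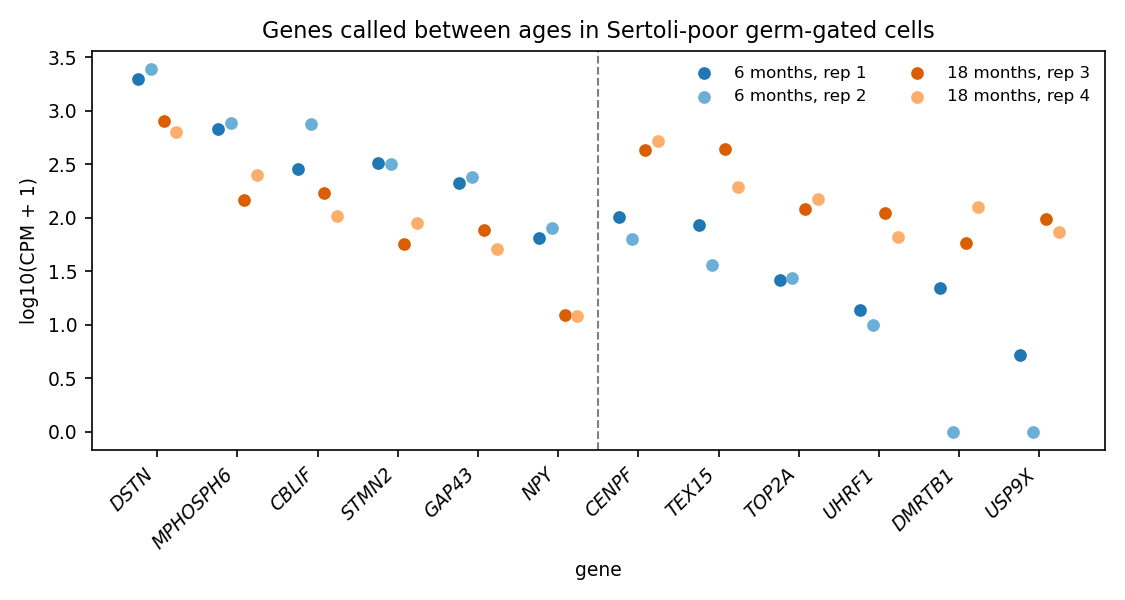
The y axis is log10(CPM + 1) in Sertoli-poor germ-gated cells, with 1 point per library, for 6 genes called higher at 6 months (left of the dashed line) and 6 called lower (right of it). The 6-month points stand above the 18-month points on the left and below them on the right for all 12 genes.

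Genes of differentiation and of cell division included several that were lower at 6 months. Of 6 tested genes that mark differentiating spermatogonia, 2 were lower and 0 higher in Sertoli-poor cells, beside 2% and 1.1% of all genes. DMRTB1, a transcription factor at the step from mitosis to meiosis in mice, had 21.1 and 0 CPM at 6 months, against 56.7 and 125 CPM at 18 months (log2 fold change -2.60 ± 0.75 SE, edgeR adjusted p = 0.0305). Its edgeR adjusted p was 0.0537 with library totals and 0.0564 with no filter on low counts, and DESeq2 gave 0.0651. TEX15, a protein of meiotic recombination and transposon silencing, had 84.4 and 35.4 CPM, against 434 and 191 CPM (-2.06 ± 0.55, edgeR adjusted p = 0.0165). KIT, the receptor that marks differentiating spermatogonia, had 1 UMI in the 81 cells, against 120 UMIs at 18 months, a CPM ratio of 0.160 with a counting interval of 0.00402 to 0.909, and its edgeR adjusted p of 0.317 did not pass. CRABP1, a retinoic acid carrier, had 405 and 443 CPM, inside the 18-month values of 261 and 524 CPM.

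Of 15 tested cell cycle genes 2 were lower and 0 higher, beside 2% and 1.1% of all genes. CENPF, a kinetochore protein of dividing cells, had 101 and 62.0 CPM at 6 months, against 430 and 524 CPM (-2.34 ± 0.53, edgeR adjusted p = 0.00214). TOP2A, which untangles DNA in mitosis, had 25.3 and 26.6 CPM, against 119 and 147 CPM (-2.21 ± 0.66, edgeR adjusted p = 0.0363). TOP2A lost its call with no filter on low counts (edgeR adjusted p = 0.0688) and kept it with library totals and in DESeq2 (0.0333 and 0.0405). CENPF and TEX15 kept theirs in each of these settings. BIRC5, another mitotic protein, had 165 and 159 CPM, against 120 and 114 CPM, and did not pass (edgeR adjusted p = 0.518). Neither did PCNA, the sliding clamp of replication, with 59.1 and 124 CPM, against 119 and 76.2 CPM. Sertoli-rich cells held 74.8% and 50.8% of the UMIs of all germ-gated cells at 6 months, against 10.8% and 29.1% at 18 months. Calls over all germ-gated cells are therefore not separate support. DMRTB1, CENPF and TOP2A were called lower over all germ-gated cells too (edgeR adjusted p 0.0122, 0.000841 and 0.00688). There CENPF lost its call when replicate 1 or 2 was left out (0.083 and 0.0546) and TOP2A when replicate 1 was (0.181), and TEX15 had an adjusted p of 0.0762. In Sertoli-poor cells, without replicate 1, the adjusted p was 0.066 for DMRTB1, 0.108 for TEX15, 0.108 for CENPF and 0.239 for TOP2A, and without replicate 2 it was 0.298 to 0.454. Without replicate 3 it was 0.0879 for TEX15, and without replicate 4 it was 0.114 for DMRTB1.

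Of 13 tested genes of DNA methylation and chromatin, 3 were lower and 0 higher in Sertoli-poor cells, beside 2% and 1.1% of all genes. UHRF1, which guides the maintenance of DNA methylation, had 12.7 and 8.86 CPM at 6 months, against 110 and 65.1 CPM (-2.74 ± 0.79, edgeR adjusted p = 0.0296). SUZ12, a subunit of Polycomb complex PRC2, had 33.8 and 8.86 CPM, against 144 and 102 CPM (-2.13 ± 0.66, edgeR adjusted p = 0.0462). EHMT1, a histone methyltransferase, had 0 UMIs at 6 months, against 163 at 18 months, at least 2.83-fold lower with a floor of 3 counts over both libraries. It passed the filter on low counts through the 18-month libraries alone. DNMT1, the maintenance methyltransferase, had 29.5 and 17.7 CPM, against 115 and 110 CPM, with an edgeR adjusted p of 0.0716. The median of the list was -1.10 on the log2 scale, beside -0.18 over all genes. With no filter on low counts all of these calls were lost (edgeR adjusted p 0.0579 for UHRF1, 0.0877 for SUZ12 and 0.0749 for EHMT1). In DESeq2 UHRF1 and SUZ12 both had an adjusted p of 0.0534. With library totals EHMT1 had 0.0686 in edgeR, while UHRF1 and SUZ12 kept their call (0.0342 and 0.0423). For UHRF1 and SUZ12 the adjusted p was 0.191 and 0.115 without replicate 1, 0.27 and 0.459 without replicate 2, and 0.106 and 0.0663 without replicate 3. For EHMT1 it was 0.26 and 0.197 without replicates 1 and 2. With all germ-gated cells, whose UMIs come mostly from Sertoli-rich cells at 6 months, 1 of 13 was lower, beside 1.13% of all genes. It was UHRF1 (edgeR adjusted p = 0.0348), and SUZ12 and EHMT1 had 0.132 and 0.188.

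The piRNA pathway showed 0 of 15 tested genes called in Sertoli-poor cells, with 1636 of 8332 genes at an unadjusted p under 0.05 in the whole comparison. Its summed level over 18 genes was 1625 and 1674 CPM at 6 months, against 2153 and 1702 CPM at 18 months. That sum includes PIWIL4, a gate gene that helped to choose the cells, so it is a description. MAEL, with its 317 and 301 CPM, faced 326 and 393 CPM at 18 months. GTSF1, a cofactor of PIWI proteins, had 152 and 177 CPM, against 116 and 186 CPM, and HENMT1, which methylates the ends of piRNAs, had 173 and 195 CPM, against 150 and 258 CPM. RNF17, a Tudor-domain protein, had 84.4 and 115 CPM, against 312 and 199 CPM, and did not pass in Sertoli-poor cells (edgeR adjusted p = 0.172). It was the 1 gene of the list called over all germ-gated cells, whose UMIs come mostly from Sertoli-rich cells at 6 months. There it was lower with an edgeR adjusted p of 0.0494, a call lost without replicate 1, 2 or 3.

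Meiotic genes were present and mostly not called. In Sertoli-poor cells 1 of 19 was lower (TEX15, above) and 0 higher, beside 2% and 1.1% of all genes. SYCP1, a protein of the synaptonemal complex, had 194 and 133 CPM at 6 months, against 302 and 209 CPM at 18 months. SMC1B, with 232 and 354 CPM, faced 348 and 363 CPM, and TEX12, with 540 and 469 CPM, faced 263 and 272 CPM without passing (edgeR adjusted p = 0.174). SYCP3 had 63.3 and 35.4 CPM at 6 months, against 48.6 and 87.7 CPM at 18 months. The single libraries held 319 CPM of SYCP3 at 4 years and 879 CPM in the cattle-yak.

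Stem and progenitor genes were thinly counted. Of 15 tested, 1 was higher in Sertoli-poor cells and 0 lower, beside 1.1% and 2% of all genes. CD9, a membrane tetraspanin, rested on 4 and 3 UMIs, or 16.9 and 26.6 CPM, against 3.14 and 1.33 CPM (log2 fold change 3.28 ± 0.95 SE, edgeR adjusted p = 0.0299). Stromal cells had 12.5 and 13.2 CPM of CD9, and the adjusted p was 0.309 and 0.459 without replicates 1 and 2. EPCAM, an adhesion protein of undifferentiated spermatogonia, had 42.2 and 79.7 CPM, against 62.3 and 50.5 CPM. ID4 rested on 9 UMIs at 6 months, LHX1 on 4, GFRA1, the GDNF receptor, on 3, and ETV5 on 2, and NEUROG3 had 0 UMIs in all 4 libraries. None of these was called. With all germ-gated cells 1 of 13 tested was higher, beside 2.46% of all genes. It was ID2, a regulator of differentiation, by 2.01 on the log2 scale (edgeR adjusted p = 0.0357), and CD9 had an adjusted p of 0.239.

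Of 14 tested receptors and signalling genes of the niche, 1 was lower in Sertoli-poor cells and 0 higher, beside 2% and 1.1% of all genes. It was BMPR2, a receptor of bone morphogenetic proteins, with 0 UMIs at 6 months, against 196 at 18 months (at least 3.40-fold lower, edgeR adjusted p = 0.0424). BMPR2 passed the filter on low counts through the 18-month libraries alone. With no filter its edgeR adjusted p was 0.072, and with library totals 0.0625. Its adjusted p was 0.235 and 0.188 without replicates 1 and 2, and 0.108 with all germ-gated cells. ACVR2B, an activin receptor, had 54.9 and 17.7 CPM, against 133 and 103 CPM, with an adjusted p of 0.188. Of 10 genes of the ubiquitin system besides UCHL1, USP9X was lower, with 1 UMI at 6 months, against 593 at 18 months, a CPM ratio of 0.0324 with a counting interval of 0.000819 to 0.181 (edgeR adjusted p = 0.00206, and 0.0797 and 0.0974 without replicates 1 and 2). UBB, a ubiquitin precursor, had 5567 and 8876 CPM, against 3988 and 4709 CPM, and did not pass.

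The 12 genes with the largest rise in Sertoli-poor cells all rested on 5 to 22 UMIs at 6 months. TNNI1, a troponin, was the best counted, with 59.1 and 70.9 CPM at 6 months, against 9.86 and 8.86 CPM at 18 months (edgeR adjusted p = 0.00189). The others were SYCN, SLC38A5, VTN, APOA2, SDS, CRYBA2, BARX2, CD9, ALB, UMOD and ASIC2. The 12 largest falls all had 0 UMIs at 6 months, among them CHAF1A, LPGAT1, ARHGEF12, DMXL1, CLIP1, PDZD8, ARAF, ERP29, ABCA6 and BMPR2. CHAF1A, a histone chaperone of replication, was at least 4.84-fold lower and ERP29 at least 2.95-fold. These falls passed the filter on low counts through the 18-month libraries alone. With no filter their edgeR adjusted p ran from 0.0311 for CHAF1A to 0.072 for BMPR2. Without replicate 1, 0 of the 24 was called, with adjusted p from 0.06 to 0.716 where measured, and without replicate 2 TNNI1 kept its call (0.0184). The 12 largest falls over all germ-gated cells each had 0 to 2 UMIs at 6 months, among them TXNRD3, VPS53, IGFBP5, RBM20, CMYA5, TAGLN, ABCA6, CHCHD6, SLC25A31, TULP4 and BNC1.

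The quality filter capped mitochondrial UMIs at 20% in each cell, and the highest germ-gated cell of the 18-month libraries stood at 19.8% in both. The levels of mitochondrial transcripts are therefore given as a description, with no test. ND2, a subunit of complex I, had 127 and 115 CPM at 6 months, against 2363 and 1519 CPM at 18 months, in Sertoli-poor cells. COX1, the catalytic subunit of cytochrome oxidase, had 764 and 399 CPM, against 8365 and 5269 CPM. ND3 had 46.4 and 44.3 CPM, against 1052 and 674 CPM. The levels at 6 months lay below those at 18 months in all 3 genes. Of 9 nuclear genes of electron transport, which the filter did not use, 0 was called in edgeR in either set of cells, with a summed level of 3731 and 4190 CPM, against 3186 and 3618 CPM in Sertoli-poor cells.

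The mitochondrial share of UMIs was 0.894% and 0.582% in Sertoli-poor cells at 6 months, against 7.76% and 5.45% at 18 months. In all germ-gated cells it was 1.01% and 1.11%, or 1.06% ± 0.07 (SD, n = 2), against 8.06% and 6.38%. The ages did not overlap in these libraries. The same order held in other cells: Sertoli-gated cells had 1.86% and 2.07%, against 15.4% and 9.96%, and all cells outside the germ gate 3.56% and 4.36%, against 10.3% and 8.67%. Age and library preparation cannot be told apart here.

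**Figure D5:**
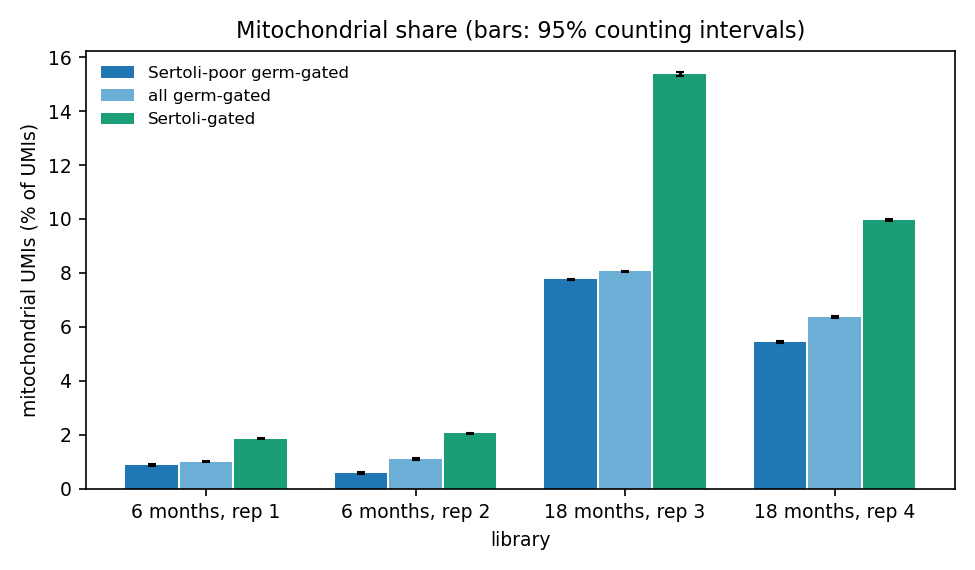
Bars give mitochondrial UMIs in percent of all UMIs for Sertoli-poor germ-gated, all germ-gated and Sertoli-gated cells of the 4 libraries, with 95% counting intervals. The highest 6-month bar stands at 2.07% and the lowest 18-month bar at 5.45%.

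Whether an age difference was larger in germ-gated than in Sertoli-gated cells was tested by an interaction in edgeR over the same 4 libraries. Sertoli-gated cells numbered 947 and 600 at 6 months, against 88 and 817 at 18 months. At least 3 UMIs of the 39 germ genes outside the gate were found in 1.48% and 1.67% of them at 6 months. At 18 months the share was 28.4% and 4.41%, with median depths of 7086 and 5597 UMIs. What germ RNA in Sertoli-gated cells does to the interaction was not tested. With all germ-gated cells, whose UMIs come mostly from Sertoli-rich cells at 6 months, 371 of 10487 genes (3.54%) were called. Of these, 316 (3.01%) had a higher and 55 (0.524%) a lower age difference than in Sertoli-gated cells. In Sertoli-poor cells 246 of 10150 (2.42%) were called, 44 (0.433%) higher and 202 (1.99%) lower. Scaling by library totals gave 243 higher and 31 lower there, so the split of directions depends on the scaling. The calls over all germ-gated cells and over Sertoli-poor cells shared 32 higher genes, which is 10.1% and 72.7% of the 2 sets. They shared 30 lower genes, 54.5% and 14.9%. STMN2 was among the genes called higher in Sertoli-poor cells (3.45 on the log2 scale, edgeR adjusted p = 3.76e-07, and 2.86e-14 with library totals). Its Sertoli-gated level was 8.52 and 18.6 CPM at 6 months, against 46.1 and 60.4 CPM at 18 months. Of all genes, Sertoli-poor cells gave 13 calls when replicate 2 was left out, 54 when replicate 1 was and 394 when replicate 3 was, and all germ-gated cells gave 44 when replicate 1 was.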

How the data were processed

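Single-cell RNA of yak testis was measured with 10x Genomics libraries. Each deposited matrix gives whole UMI counts by gene and barcode. The authors ran Cell Ranger (5.0.0 per the file headers, but 2.1.1 in the submitters' processing notes). No source used here names the genome build, so no positions or sequences are given. Symbols are those of the files (15722 of 26961 features), and AMH, DDX4, DAZL and other symbols that were not matched are not used here. Each barcode held 500 UMIs or more.

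From the counts, cells were gated as described and UMIs were summed per library. CPM are per 1000000 UMIs of the summed cells. Ages were compared in edgeR 4.0.16 (R 4.3.3; TMM scaling, filterByExpr, quasi-likelihood test, Benjamini-Hochberg at 0.05) with 2 libraries an age and no covariate. The interaction was fitted in the same way over germ-gated and Sertoli-gated sums, with a term for each library. Named genes were the gate genes, genes of fixed lists, the 12 largest called changes in each direction without overlap between ages, the 25 leading genes and the 5 largest interactions in each direction; some of these genes are not reported here. The members and lists were chosen with earlier results of these data known. The tests were tried on simulated data. Alternatives were DESeq2 1.42.0, library totals, no filter, stricter cell filters and gate, doublets removed by Scrublet rank (scanpy 1.11.5, 0.8% per 1000 barcodes), thinning to 1000 UMIs and leaving out each library. Doublets otherwise stayed in, and reads of overlapping or antisense genes and of near-identical copies may be split or shared.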

Additional observations from a re-analysis of the deposited data

Results flagged for a closer look

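Genes whose age difference (6 over 18 months) differed between germ-gated and Sertoli-gated cells by the interaction test in edgeR are given with the log2 value of germ-gated minus Sertoli-gated. With 0 or few UMIs in 1 of the groups such fitted values depend on the prior count and are no bounds. Over all germ-gated cells the values above 0 were 7.98 for MLIP, 7.77 for LY6H, 7.74 for UPP1, 6.57 for DNAH11 and 6.03 for ADAD1. Those below 0 were -12.59 for NTF3, -6.99 for HORMAD2, -6.93 for ASB2, -5.45 for PKMYT1 and -4.58 for LSAMP. UMIs of all germ-gated cells come mostly from Sertoli-rich cells at 6 months. In Sertoli-poor cells LY6H had 8.55, MLIP 8.24, UPP1 8.20, DNAH11 6.98 and ADAD1 6.36, and below 0 PCOLCE2 had -12.48, APOD -9.15, LPGAT1 -9.07 and ERP29 -8.66. UPP1, uridine phosphorylase, was the 1 of the 5 higher genes also called between ages in Sertoli-poor cells, with 50.6 and 44.3 CPM at 6 months, against 8.51 and 9.74 CPM at 18 months.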

How the results depend on the processing

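No paired analysis was possible because the ages share no replicate number (1 and 2 at 6 months, 3 and 4 at 18 months). The total of genes called between ages over all germ-gated cells was 318; separate fits, whose calls need not be the same genes, gave 141 without cells of more than 1 Sertoli UMI, 177 with the stricter cell filter, 133 without doublets, 135 with the stricter gate, 17 after thinning to 1000 UMIs and 1197 with library totals; leaving out 1 replicate gave 58 to 1008. In Sertoli-poor cells (259) DESeq2 gave 136, no filter 99, and leaving out 1 replicate 25 to 643. Interaction calls (371) came to 246 in Sertoli-poor cells, 233 without cells of more than 1 Sertoli UMI, 117 with the stricter filter, 148 without doublets, 139 with the stricter gate, 53 thinned, 123 with DESeq2, 230 with no filter and 44 to 387 without 1 replicate; in Sertoli-poor cells (246) DESeq2 gave 105 and leaving out 1 replicate 13 to 394. The mitochondrial share (1.06%) was 0.561% with the stricter gate, 0.664% and 0.738% without cells of more than 1 and more than 5 Sertoli UMIs, and 0.897% thinned. The number of cells (120) was 50 with the stricter gate and 58 without cells of more than 1 Sertoli UMI. The summed Sertoli level (5475 CPM) was 4778 without doublets, 1547 with the stricter gate, 121 and 268 without cells of more than 1 and more than 5 Sertoli UMIs, and 2498 thinned. FOSB turned to -0.45 and -0.61 without cells of more than 5 and more than 1 Sertoli UMIs and to -0.62 thinned, and ATF3 to -0.36 thinned. The cause was not tested, except that thinning and leaving out cells or libraries leave fewer UMIs. Where leaving out a library leaves 1 at an age, it is assumed to vary like the other age. The Sertoli-poor cells at 6 months held 236937 and 112894 UMIs, and thinned germ-gated cells 69000 and 43000.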

Other observations

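WT1 is a transcription factor listed here among Sertoli markers. Its level was 148 and 142 CPM in Sertoli-poor germ-gated cells at 6 months, against 24.3 and 15.5 CPM in Sertoli-gated cells and 58.4 and 28.5 CPM in stromal cells of the same libraries. It had UMIs in 20 of 51 and 10 of 30 Sertoli-poor cells. At 18 months Sertoli-poor cells had 187 and 154 CPM of it.

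SPACA1, an acrosomal protein of spermatids, was present at 71.7 and 53.1 CPM in Sertoli-poor cells at 6 months, against 24.0 and 27.9 CPM at 18 months, and did not pass the edgeR test between ages. ACRV1, SPACA4 and HMGB4, the other spermatid markers, had 0 UMIs at both ages.

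Ribosomal protein genes took a larger part of the UMIs at 6 months, with a summed 123590 and 129741 CPM in Sertoli-poor cells, against 80918 and 93698 CPM at 18 months, while 0 of 26 was called by edgeR. Their median log2 fold change was 0.69, beside -0.18 over all genes tested.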
